A study of Triticum aestivum with 18 samples.

Results

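The wheat loci annotated to glycolysis, the tricarboxylic acid (TCA) cycle and the glyoxylate cycle were measured in the flag leaf and the grain after the balance between leaves and ear was altered during grain filling. A locus was a member if its gene ontology annotation named 1 of these 3 pathways and its FPKM (fragments per kilobase of transcript, scaled to the mapped fragments of the library) was at least 1 in at least 3 libraries of either tissue. Of 265 annotated loci in a table of 115478, 234 were members: 141 of glycolysis, 90 of the TCA cycle and 3 of the glyoxylate cycle. The 3 members just inside the limit had a third-highest FPKM of 1.07, 1.07 and 1.11, and the 3 loci just outside it had 0.685, 0.628 and 0.612. The members fell into 20 enzyme steps. Of the members, 62 had no description and 20 were described only as phosphotransferase, so that the step of these loci was taken from the annotated function. The members include the 14 loci of phosphoenolpyruvate carboxylase (PEP carboxylase), which the annotation files under the TCA cycle. Loci of glyceraldehyde-3-phosphate dehydrogenase, aconitase, pyruvate dehydrogenase and isocitrate lyase carried none of the 3 terms and were not members.

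There were 18 libraries in 6 groups of 3, all from wheat at grain filling. Flag leaves came from plants whose whole head had been taken off, from plants with 0.5 of the head taken off, and from normally growing control plants. Grains came from plants whose heads were shaded and whose leaves were all removed, from plants with 0.5 of the head taken off, and from control plants. No group was shaded without losing its leaves, so these 2 treatments cannot be told apart. The labels do not state whether different plants gave the 3 libraries of a group. The p-values therefore cover only the spread among these libraries, which may be technical.

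Glycolysis splits glucose into pyruvate in the cytosol, and plants run a second copy of many of its steps in the plastid. The TCA cycle oxidises pyruvate carbon in the mitochondrion, and PEP carboxylase refills it by adding bicarbonate to phosphoenolpyruvate. The glyoxylate cycle bypasses the carbon dioxide-releasing steps of the TCA cycle with isocitrate lyase and malate synthase, and is best known from germinating oilseeds and from senescing leaves, where it uses acetyl units from fatty acid breakdown. Bread wheat carries A, B and D genomes, so that most enzymes have a homoeologous copy on each, and a name such as 2AL gives the long arm of chromosome 2A.

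Library facts bear on the values as follows. The FPKM sum of a library ranged between 409211 and 779076, read counts were not used here, and the depth behind each value is unknown. Shaded grain library 2 stood apart, with 12276 loci at an FPKM of at least 1, against 36709 to 47111 in the other libraries, and 89.9% of its FPKM sum lay on loci without a gene name. That share was 55.4% in control grain library 1, which had 36709 such loci, and 24.35% to 37.29% in the remaining grain libraries. In leaf, the share was 25.8% to 34.2% after whole head removal, 27.0% to 34.1% after partial removal and 13.9% to 19.7% in controls. The part of this share in the leaf and grain results was not tested. Chlorophyll-binding, Rubisco and photosystem genes, taken as leaf markers, reached an FPKM of 1 at 69 to 78 of 108 loci in leaf libraries and at 1 to 15 in grain libraries. Their summed share was 0.714% to 1.95% after whole head removal, 0.518% to 1.19% after partial removal and 0.521% to 1.3% in control leaves. Storage protein genes, taken as endosperm markers, reached that level at 11 to 14 of 18 loci in grain libraries and at 0 to 9 in control leaf libraries, where they took at most 0.0131% of the FPKM sum, and at 0 loci in the other leaf libraries. All values below are scaled FPKM, which is FPKM divided by a library factor fitted within a tissue.

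Removal of the whole head was set against control leaves to ask how the enzymes of central carbon metabolism respond in a leaf that has lost its main sink. Malate synthase fell at all 3 loci, PEP carboxylase at 6 of 11 and the pyrophosphate-dependent phosphofructokinase at 10 of 11. Malate dehydrogenase rose at 6 of 23 loci and fell at 2. Its summed level did not rise, at 1080 ± 189 scaled FPKM after whole removal and 1145 ± 104 in controls (SD, n = 3 each), and these groups overlapped. Of 204 members tested in leaf, 15 were higher and 35 were lower at a Benjamini-Hochberg adjusted p under 0.05 in limma's moderated test. Over all 48696 genes tested, 20.3% were called, 10.8% higher and 9.5% lower. The median log2 change was -0.19 over the members and -0.01 over all genes. Whole-head and control libraries did not overlap at 100 of the 204 members, among them all 50 called. For partial removal against controls this number was 49, among them all 3 called. Non-overlap, given below for single loci, therefore adds nothing to a call, and it was not counted over all genes. By pathway, 5 rose and 20 fell among 118 glycolytic loci, and 10 rose and 12 fell among 83 TCA cycle loci. The summed glycolytic level was 2772 ± 746 scaled FPKM after whole removal and 3208 ± 700 in controls, with overlap. That of the TCA cycle, PEP carboxylase included, was 2134 ± 308 and 2591 ± 104 (SD, n = 3 each). Without scaling, 7 members were higher and 52 lower, and the median of all genes then lay at -0.15. The count of members called was 32 without whole-head library 2, 32 without control leaf library 1 and 33 without control leaf library 2. In bulk tissue, fewer cells of a type and less RNA per cell cannot be told apart.

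Malate synthase, which joins acetyl-CoA and glyoxylate to malate and is an enzyme of the glyoxylate cycle, fell in all 3 copies. The annotation files these 3 loci under the TCA cycle too, and they are counted here with the glyoxylate cycle. The 2AL copy MSTRG.12552 had 0.818, 4.78 and 0.415 scaled FPKM after whole head removal, 5.86, 3.90 and 4.47 after partial removal, and 24.6, 20.2 and 14.9 in control leaves. The 2BL copy MSTRG.16081 had 0.179, 0.216 and 0.0399 after whole removal, 3.05, 2.6 and 0.917 after partial removal, and 5.87, 8.98 and 9.72 in controls. The 2DL copy MSTRG.19905 had 0.241, 0.848 and 0.423 after whole removal, 3.39, 3.37 and 0.985 after partial removal, and 4.95, 5.13 and 12 in controls. Control leaves were the highest group in each copy and overlapped neither treatment, and whole-head leaves lay below partial-head leaves in the 2BL and 2DL copies but overlapped them in the 2AL copy, where library 2 was high. Whole head removal gave log2 changes of -3.06 ± 0.46 (SE), -2.98 ± 0.28 and -2.40 ± 0.38 on the log2(scaled FPKM + 1) scale, with limma adjusted p = 0.0027, 0.00036 and 0.0035. All 3 copies passed the filter through their control and partial-removal libraries, the 2AL copy also through whole-head library 2. The 2BL and 2DL copies lay under 1 in every whole-head library, and the 2AL copy in whole-head libraries 1 and 3. The sum of the 3 copies was 2.65 ± 2.77 scaled FPKM after whole removal, 9.51 ± 2.98 after partial removal and 35.5 ± 1.17 in controls (SD, n = 3 each).

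In grain the 3 malate synthase copies lay below the limit for testing. Their summed level was 1.01, 4.09 and 0.907 scaled FPKM in shaded grains, 0.644, 0.730 and 0.444 after partial removal, and 0.395, 0.667 and 1.04 in controls, on the grain scale. The high value was that of shaded library 2, which stood apart, and the other shaded libraries lay below the highest control. Isocitrate lyase, the other enzyme of the bypass, has 2 loci in the table, and both lay too low to be tested. Its 2DS locus MSTRG.21524 had an FPKM of 0.00698, 0 and 0.0256 after whole head removal, 0.325, 0.497 and 0.139 after partial removal, and 0.364, 0.515 and 0.325 in control leaves. Its 2BS locus MSTRG.17097 was listed at 0 in all 3 whole-head libraries and had 0.152 to 0.331 in control leaves. After partial removal it had 0.0446, 0.386 and 0.0417, on both sides of the controls. Low FPKM of this size may rest on few fragments.

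**Figure D1:**
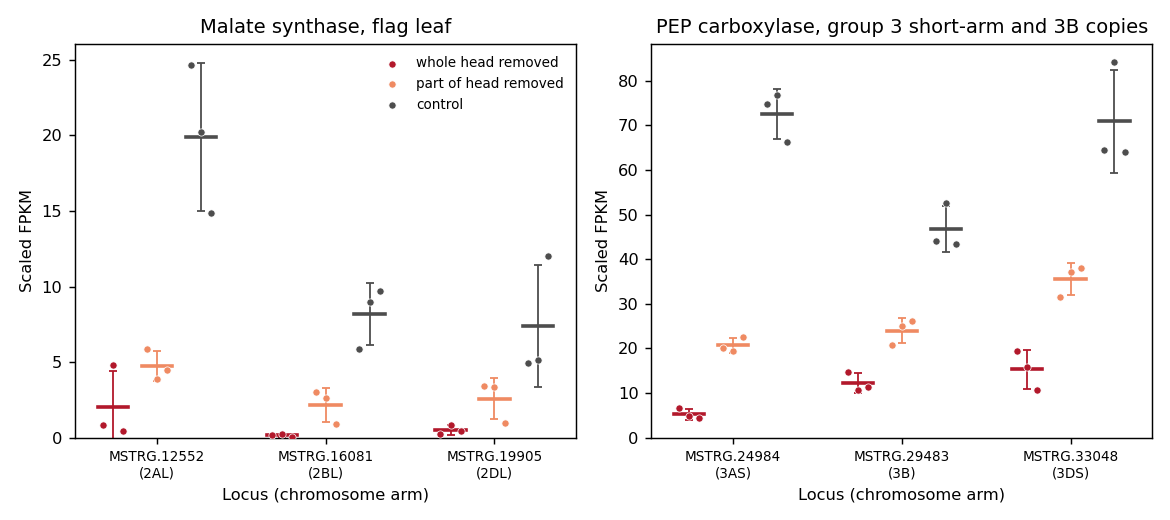
Scaled FPKM of the 3 malate synthase loci (left) and of 3 PEP carboxylase loci (right) in each flag leaf library, with group means (bars) and SD (whiskers, n = 3). In all 6 loci the control leaves lie above both treatments, and in the 3 PEP carboxylase loci whole-head, partial-head and control leaves form 3 separate levels.

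PEP carboxylase was lower after whole head removal in 6 of 11 copies tested and higher in none. The 3AS copy MSTRG.24984 had 6.60, 4.76 and 4.32 scaled FPKM after whole removal, 20.2, 19.4 and 22.4 after partial removal, and 74.8, 76.7 and 66.3 in control leaves. The 3 groups did not overlap, and the log2 change for whole removal was -3.58 ± 0.17 (SE; limma adjusted p = 3.5e-05), the lowest adjusted p among the members in this comparison. The 3B copy MSTRG.29483 had 14.7, 10.7 and 11.3 after whole removal, 20.8, 25 and 26.2 after partial removal, and 44.2, 52.6 and 43.5 in controls. The 3DS copy MSTRG.33048 had 19.4, 15.9 and 10.6 after whole removal, 31.5, 37.1 and 38.0 after partial removal, and 64.5, 84.2 and 64.0 in controls. Both showed the same order of groups without overlap, with log2 changes for whole removal of -1.86 ± 0.17 and -2.17 ± 0.23 (limma adjusted p = 0.00035 and 0.0006).

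A second set of PEP carboxylase copies, on 5AL, 5BL and 5DL, fell after whole removal but did not follow that order. The 5DL copy MSTRG.52040 had the highest mean over the 9 leaf libraries, although the 3AS and 3DS copies had higher means in control leaves. It had 25.2, 26.7 and 23.8 scaled FPKM after whole removal, 123, 86.6 and 68.9 after partial removal, and 72.3, 54.4 and 68.7 in controls. Whole-head leaves were lowest without overlap, while partial-head leaves and controls overlapped. Its log2 change for whole removal was -1.33 ± 0.23 (limma adjusted p = 0.0048), and those of the 5AL copy MSTRG.44427 and the 5BL copy MSTRG.49955 were -1.03 and -0.89. The 5AL call was lost without whole-head library 1 or 3 or control library 1 or 2, at limma adjusted p between 0.054 and 0.066. The summed level of PEP carboxylase loci was 139 ± 12.9 scaled FPKM after whole removal, 287 ± 27.9 after partial removal and 382 ± 12.5 in controls (SD, n = 3 each).

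**Figure D2:**
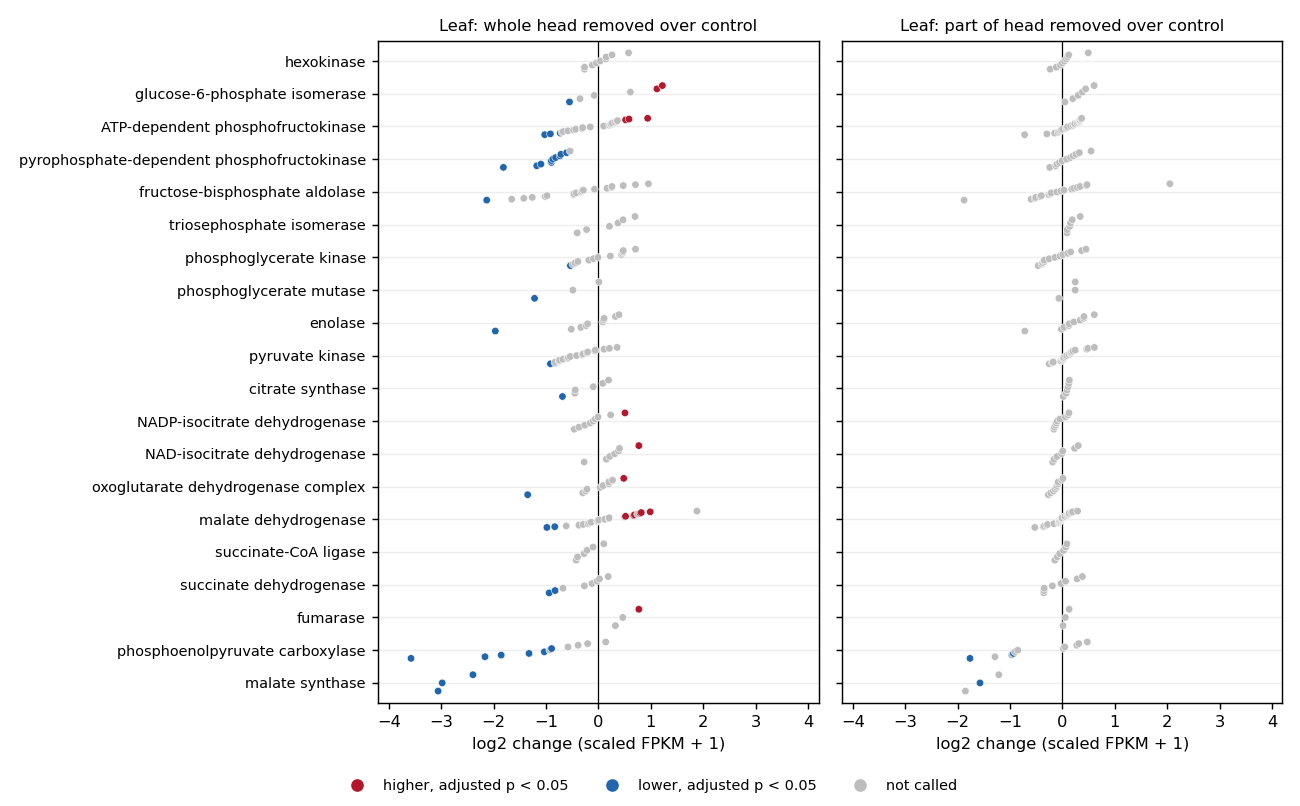
Log2 change of every member tested in leaf, by enzyme step, for whole head removal over control (left) and partial head removal over control (right). Red and blue points are members called higher and lower at a limma adjusted p under 0.05. The pyrophosphate-dependent phosphofructokinase and malate synthase copies all lie below 0 on the left, and 3 members are called on the right.

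The early steps of glycolysis did not move as a block. Hexokinase, which phosphorylates glucose, had no copy called among 9 tested, and its changes ranged between -0.27 and 0.57. Glucose-6-phosphate isomerase, which makes fructose 6-phosphate, split by copy. MSTRG.50278 on 5BL had 20.6, 20.7 and 15 scaled FPKM after whole removal, against 9.06, 8.69 and 6.56 in controls (log2 1.12 ± 0.19, limma adjusted p = 0.0043), and MSTRG.53191 on 5DL had 27.2, 29.0 and 20.4, against 13.7, 11.9 and 6.54 (1.22 ± 0.26, limma adjusted p = 0.013). The 1AS copy MSTRG.2813 was lower instead, with 10.6, 10.1 and 8.48 after whole removal and 16.2, 14.5 and 13.5 in controls (-0.55 ± 0.14, limma adjusted p = 0.021). The groups overlapped at none of the 3 loci, but the 1AS call was lost without whole-head library 2 or 3 or control library 1 or 2 (limma adjusted p between 0.056 and 0.078).

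ATP-dependent phosphofructokinase, which commits fructose 6-phosphate to glycolysis, had 3 copies higher and 3 lower of 22. Over all genes in this fit 10.8% were called higher and 9.5% lower, so these counts are not a result about the step. The 3 lower copies form 1 homoeologous set, described in the table as the chloroplastic form 4. They were MSTRG.25664 on 3AS, at 8.05 ± 0.813 against 16.1 ± 0.812 scaled FPKM, MSTRG.29520 on 3B, at 6.95 ± 0.561 against 12.2 ± 0.773, and MSTRG.33731 on 3DS, at 13.2 ± 2.31 against 27.6 ± 1.15 (whole-head leaves against controls, SD, n = 3 each). Their log2 changes were -0.92 ± 0.13, -0.73 ± 0.14 and -1.03 ± 0.18, and each kept its call in every alternative run. The 3 higher copies, MSTRG.35738 on 4AL, MSTRG.67319 on 7AS and MSTRG.74435 on 7DS, had a lower level, between 2.6 and 7.30 after whole removal and between 0.968 and 4.50 in controls. The 7AS copy had the smallest change of the 3, 0.52, and lost its call in 7 of the alternatives.

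Pyrophosphate-dependent phosphofructokinase (PFP) catalyses the same conversion reversibly with pyrophosphate in place of ATP, in the cytosol, and is built of regulatory alpha and catalytic beta subunits. Of the 11 copies, 8 alpha and 3 beta, 10 fell in whole-head leaves, where 9.5% of all genes were called lower. The largest change was that of the alpha copy MSTRG.62412 on 6DL, which had 1.37, 1.47 and 2.11 scaled FPKM after whole removal, against 7.65, 11.6 and 6.27 in controls (log2 -1.81 ± 0.30, limma adjusted p = 0.0042). Its homoeologs behaved alike: MSTRG.55878 on 6AL had 5.00, 3.93 and 5.78, against 11.3, 13.9 and 11.6, and MSTRG.58554 on 6BL had 7.82, 9.21 and 10.1, against 20.2, 21.2 and 19.8. Of the beta copies, MSTRG.67665 on 7AS had 10.5, 9.86 and 9.53 after whole removal, against 19.8, 21.8 and 16.9 in controls, and MSTRG.70701 on 7BS had 10.2, 11.2 and 8.85, against 17.6, 17.4 and 17.2. The third, MSTRG.74171 on 7DS, had a change of -0.54 ± 0.22 that did not pass (limma adjusted p = 0.12). Partial removal called none of the 11, whose changes ranged between -0.24 and 0.55. Summed over the family, the level was 67.6 ± 0.487 scaled FPKM after whole removal, 150 ± 34.7 after partial removal and 134 ± 16 in controls (SD, n = 3 each).

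The number of PFP copies called was 5 without whole-head library 2, 6 without control leaf library 1 and 5 without control leaf library 2. Every copy called in these fits was lower. The 6AL, 6BL and 6DL copies, with the low alpha copies MSTRG.67379 on 7AS and MSTRG.73269 on 7DS, kept their calls in every alternative that tested them. Relative to partial removal, whole removal lowered 10 of the 11, with the 7DS beta copy again outside the test (-0.48 ± 0.22, limma adjusted p = 0.16).

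The steps between aldolase and enolase had 4 calls in leaf, all lower. Fructose-bisphosphate aldolase, which cleaves the hexose and also serves the Calvin cycle in chloroplasts, had 1 call in 19. This was MSTRG.71996 on 7DL, with 36.6, 16.5 and 18.6 scaled FPKM after whole removal, against 139, 153 and 49.4 in controls (log2 -2.13 ± 0.46, limma adjusted p = 0.012, and 0.051 without whole-head library 2). Control library 3 was low at this locus. Triosephosphate isomerase, which interconverts the 2 trioses, had no call in 6, and phosphoglycerate kinase, the first ATP-yielding step, had 1 in 13, MSTRG.5632 on 1BL, at 0.791 to 1.01 after whole removal and 1.44 to 2.32 in controls. Among the 10 enolase copies, which make phosphoenolpyruvate, MSTRG.74575 on 7DS fell, with 0.558, 0.813 and 0.150 after whole removal, 15.5, 4.13 and 7.13 after partial removal and 3.03, 5.88 and 6.03 in controls (-1.97 ± 0.40 against controls, limma adjusted p = 0.0098). The phosphoglycerate mutase copy MSTRG.59622 on 6BL fell to 0.835 ± 0.223, against 3.26 ± 0.288 in controls (SD, n = 3 each). These enolase and mutase loci passed the filter on low values through their control and partial-removal libraries. The phosphoglycerate kinase locus MSTRG.5632 lay near the FPKM limit of 1 in whole-head leaves and passed on low values through its control libraries.

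Pyruvate kinase, the last step of glycolysis, was called lower in 2 of 19 copies and higher in none, with a median log2 change of -0.42 over the copies tested. The count of calls lies near the 9.5% of all genes called lower and is not a result about the step. The plastidial form 1 copy MSTRG.21043 on 2DS had 15, 16.5 and 13.4 scaled FPKM after whole removal, 27.9, 28.2 and 27.0 after partial removal, and 28.6, 27.3 and 26.1 in controls. Whole-head leaves were low without overlap (log2 -0.83 ± 0.13, limma adjusted p = 0.0037). MSTRG.48423 on 5BL, the most abundant copy in leaf, had 27.3, 23.2 and 14.4 after whole removal and 43.8, 44.8 and 33.8 in controls (-0.92 ± 0.26, limma adjusted p = 0.039), and lost its call in 7 of the alternatives.

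In the TCA cycle, malate dehydrogenase, which interconverts malate and oxaloacetate, had the most calls, 6 higher and 2 lower of 23 copies. Of the 8 loci on 1AL, 1BL and 1DL, 3 rose, 1 on each arm, and the other 5 did not pass the test. MSTRG.1860 on 1AL had 28.7, 24.5 and 22.7 scaled FPKM after whole removal, against 17.5, 14.8 and 14.2 in controls, MSTRG.4578 on 1BL had 32.8, 35.8 and 29.1, against 18.9, 16.2 and 19.8, and MSTRG.9051 on 1DL had 10.1, 7.13 and 5.54, against 2.95, 3.28 and 3.48. Their log2 changes were 0.67 ± 0.15, 0.80 ± 0.15 and 0.99 ± 0.18. The other higher copies were MSTRG.28790 on 3B (0.52), MSTRG.31944 on 3DL (0.82) and MSTRG.69013 on 7BL (0.69). The lower ones were MSTRG.47178 on 5AS, at 14.4 ± 1.18 against 26.5 ± 2.55, and MSTRG.54884 on 5DS, at 35.6 ± 9.28 against 69.9 ± 7.12 (whole-head leaves against controls, SD, n = 3 each). The 5DS locus also carries the glycolytic term, so its reads may include another transcript. The count called was 5 without scaling, 2 higher and 3 lower. It was 5 without whole-head library 1 or 2, and 4 without control leaf library 1 or 2.

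The decarboxylating and later steps of the cycle had few calls. Succinate dehydrogenase, which is also complex II of the respiratory chain, fell in 2 of 8 copies tested, both of the flavoprotein subunit. MSTRG.45827 on 5AL had 26.6, 30.7 and 20.4 scaled FPKM after whole removal, against 49.0, 43.6 and 58.5 in controls, and MSTRG.47416 on 5BL had 38.3, 46.7 and 36.7, against 73.8, 59.4 and 86.5. Citrate synthase, the entry step, fell in 1 of 6 copies, MSTRG.46354 on 5AL, at 14.7 ± 1.63 against 24.3 ± 2.49 (SD, n = 3 each). The higher copies were MSTRG.10483 on 2AL of the NAD-dependent isocitrate dehydrogenase (10.5 ± 1.73 against 5.73 ± 0.577), MSTRG.11292 on 2AL of the NADP-dependent form (9.27 ± 1.22 against 6.21 ± 0.509), MSTRG.10513 on 2AL of the oxoglutarate dehydrogenase complex (10.4 ± 1.23 against 7.11 ± 0.224) and MSTRG.41446 on 4DL of fumarase (15.2 ± 2.24 against 8.48 ± 0.833). Of these 4, the NAD-dependent isocitrate dehydrogenase kept its call in every alternative, and the other 3 each lost theirs in 9 of the alternatives. The citrate synthase and 5BL succinate dehydrogenase calls were each lost in 8, and that of the 5AL succinate dehydrogenase without whole-head library 3 or control library 1 (limma adjusted p = 0.065 and 0.057). Another locus of the oxoglutarate dehydrogenase complex, MSTRG.21786 on 2DS, fell, with 0.779, 1.27 and 0.849 after whole removal and 4.22, 4.62 and 3.22 in controls. This locus lay near the FPKM limit of 1 in whole-head leaves and passed the filter on low values through its control libraries. Succinate-CoA ligase, the ATP-forming step, had no call in 6.

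Partial head removal asked whether a smaller loss of sink gives the same changes in leaf. Members called were 3 of 204, all lower, while 1.63% of all genes were called, 1.09% higher and 0.536% lower. They were the PEP carboxylase copies MSTRG.24984 on 3AS (log2 -1.76 ± 0.17, limma adjusted p = 0.0049) and MSTRG.29483 on 3B (-0.94 ± 0.17, limma adjusted p = 0.034) and the malate synthase copy MSTRG.16081 on 2BL (-1.57 ± 0.28, limma adjusted p = 0.03). The third PEP carboxylase of the set, MSTRG.33048 on 3DS, had -0.97 ± 0.23 (limma adjusted p = 0.091), and the malate synthase copies MSTRG.12552 on 2AL and MSTRG.19905 on 2DL had -1.85 ± 0.46 and -1.21 ± 0.38 (limma adjusted p = 0.11 and 0.23). None of the 118 glycolytic loci was called in limma, and 16 had an unadjusted p under 0.05. Of the 3 calls, that of the 3AS copy was kept in every alternative, and it was the only 1 left without the whole-head library 3, the partial-head library 2 or 3, or the control library 1 or 2.

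Set directly against partial removal, whole removal raised 13 members and lowered 37 of 204, where 16.5% of all genes were called, 8.57% higher and 7.95% lower. The 10 PFP copies, the 6 PEP carboxylase copies, 5 of 19 pyruvate kinase copies and the enolase copy MSTRG.74575 on 7DS (-2.58 ± 0.40) were among the lower members. Malate dehydrogenase was higher in 6 copies, among them MSTRG.69013 on 7BL (log2 1.22 ± 0.20) and MSTRG.31944 on 3DL (1.18 ± 0.20). Malate synthase passed in the 2BL copy alone of the 3 (-1.41 ± 0.28, limma adjusted p = 0.011). This comparison shares the whole-head libraries with the one against controls. Without scaling, 15 members were higher and 25 lower, and the count of calls was 31 without whole-head library 2 and 28 without partial-head library 2.

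Genes that feed or drain the 3 pathways were counted in the same whole-removal fit, in which 10.8% of all genes were higher and 9.5% lower. Loci outside the members that matched enzyme names, such as glyceraldehyde-3-phosphate dehydrogenase, aconitase and pyruvate dehydrogenase, were higher at 1 and lower at 2 of 47. That list also held a pyruvate dehydrogenase kinase, an ATP-citrate synthase and chloroplastic forms of pyruvate dehydrogenase, so it is wider than the 3 pathways. The list for peroxisomal beta-oxidation, the pathway that supplies the acetyl units used by malate synthase, was lower at 6 of 14 loci and higher at none. It also held loci of long chain acyl-CoA synthetases 1 and 8, whose part in this pathway the descriptions do not give. Acyl-CoA oxidase, the first step of beta-oxidation, fell at MSTRG.66540 to 5.17 ± 1.04 scaled FPKM after whole removal, against 16 ± 1.51 in controls. The thiolase MSTRG.61894, the last step, fell to 100.3 ± 15.4, against 189.8 ± 17.6 (SD, n = 3 each). Among 17 loci of C4 acid enzymes, which include pyruvate, phosphate dikinase, 3 were higher and 4 lower. All 7 calls were loci of malic enzyme, which turns malate into pyruvate. The highest of these in whole-head leaves was MSTRG.28268, at 25.8 ± 8.84 against 6.26 ± 1.37, and the lower ones included MSTRG.30969, at 8.81 ± 0.343 against 25.1 ± 7.82. Of 21 mitochondrial carrier loci, 3 were higher, 2 of them pyruvate carriers, and of 39 respiratory chain loci, 4 were higher and 1 was lower. These counts lie near the 10.8% of all genes called higher and are not a result about the lists. The lower one was a ubiquinol oxidase, the alternative oxidase that bypasses proton pumping (MSTRG.16693, 3.53 ± 1.40 against 11.7 ± 5.53). The oxidative pentose phosphate list had no call in 17 loci, with 2 at an unadjusted p under 0.05. Partial removal gave no limma call in any of these lists, with 3 loci at an unadjusted p under 0.05.

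Grains of shaded, defoliated plants were set against control grains to ask how the same enzymes respond when the grain loses its supply. Members called were 6 of 200 tested, all lower, while 1.82% of all 45784 genes were called, 0.325% higher and 1.5% lower. The median log2 change was 0.01 over the members and 0.00 over all genes. The calls fell on 3 alpha copies of PFP, 1 triosephosphate isomerase copy and 2 PEP carboxylase copies. The summed share of the storage protein markers was also lower in shaded grains, at 0.0221% to 0.442%, against 0.506% to 0.644% after partial removal and 1.09% to 1.25% in controls. Over the full list of 41 endosperm loci, which adds starch and sucrose enzymes, the share was 0.0262% to 0.47% in shaded grains, 0.547% to 0.691% after partial removal and 1.14% to 1.29% in controls. The low end of both shaded ranges was that of shaded library 2, which stood apart. Shaded libraries 1 and 3 had 0.442% and 0.327% for the storage proteins, and 0.47% and 0.36% for the full list. The part of these markers in the result was not tested.

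The PFP alpha copy MSTRG.50585 on 5BS had 4.09, 1.93 and 3.20 scaled FPKM in shaded grains, 5.39, 7.30 and 6.76 after partial head removal, and 21.2, 10.3 and 18.0 in controls. MSTRG.54819 on 5DS had 7.77, 3.09 and 5.52 in shaded grains, 9.37, 11.2 and 10.9 after partial removal, and 32.0, 16.3 and 28.8 in controls. MSTRG.46975 on 5AS had 3.50, 1.64 and 2.85 in shaded grains, 4.71, 6.74 and 5.53 after partial removal, and 16.1, 7.41 and 10.9 in controls. The 3 groups did not overlap in any of these copies, shaded grains being lowest and controls highest. Shaded and control grains did not overlap at 63 of 200 members, among them all 6 called, so non-overlap adds nothing to a call. In each copy control library 2 was the lowest control and control library 1 the highest. Control library 1 had 55.4% of its FPKM sum on loci without a gene name. Shading with defoliation gave log2 changes of -2.08 ± 0.28, -2.06 ± 0.31 and -1.74 ± 0.28 (limma adjusted p = 0.012, 0.017 and 0.021). None of the 3 kept its call in every alternative. The number of PFP copies called ranged between 1 and 3 with each library left out, and between 0 and 3 in the other alternatives. The other 6 PFP loci tested in grain were not called, with changes between -0.33 and 0.15. The difference between the 5S copies and the other copies was not tested.

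Triosephosphate isomerase MSTRG.23406 on 3AL had 2.21, 0.563 and 1.15 scaled FPKM in shaded grains, 3.21, 4.37 and 3.70 after partial removal, and 7.53, 5.75 and 7.52 in controls. Its groups did not overlap (log2 -1.83 ± 0.24, limma adjusted p = 0.011), and its call was kept in every alternative that tested it. The PEP carboxylase copy MSTRG.26386 on 3B had 1.90, 1.25 and 1.3 in shaded grains, 2.39, 2.82 and 3.87 after partial removal, and 9.29, 4.91 and 5.86 in controls (-1.60 ± 0.22, limma adjusted p = 0.013). MSTRG.30658 on 3DL had 1.07, 0.878 and 1.40 in shaded grains, 1.68, 1.85 and 2.70 after partial removal, and 5.84, 2.93 and 4.13 in controls (-1.3 ± 0.21, limma adjusted p = 0.022). These are different copies from the group 3 short-arm set that fell in leaf. The number of PEP carboxylase copies called ranged between 0 and 2, both with each library left out and in the other alternatives. Without shaded library 2, which stood apart, 5 members were called, all lower. The count was 2 without shaded library 3, 3 without control grain library 3, and 2 when the partial-removal grains were left out of the fit.

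Of the lists around the pathways, fermentation had 2 calls among 7 loci in shaded grains, both lower, where 1.5% of all genes were called lower. None of the other lists had a call. The 2 fermentation calls were both alcohol dehydrogenases. These enzymes, which regenerate NAD+ when pyruvate is fermented, were MSTRG.34943 (ADH2A, 0.12 ± 0.0616 scaled FPKM against 3.31 ± 1.08 in controls) and MSTRG.535 (ADH3D, 1.09 ± 1.03 against 7.56 ± 1.65, SD, n = 3 each). The ADH2A locus passed the filter on low values through the groups where it was higher. The TCA cycle beyond PEP carboxylase had no call in shaded grains. Its summed level, PEP carboxylase included, was 897 ± 43.4 scaled FPKM in shaded grains, 885 ± 49.7 after partial removal and 876 ± 18.4 in controls. The summed glycolytic level was 1167 ± 1.17 in shaded grains, 1299.7 ± 76.9 after partial removal and 1335 ± 29.3 in controls.

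**Figure D3:**
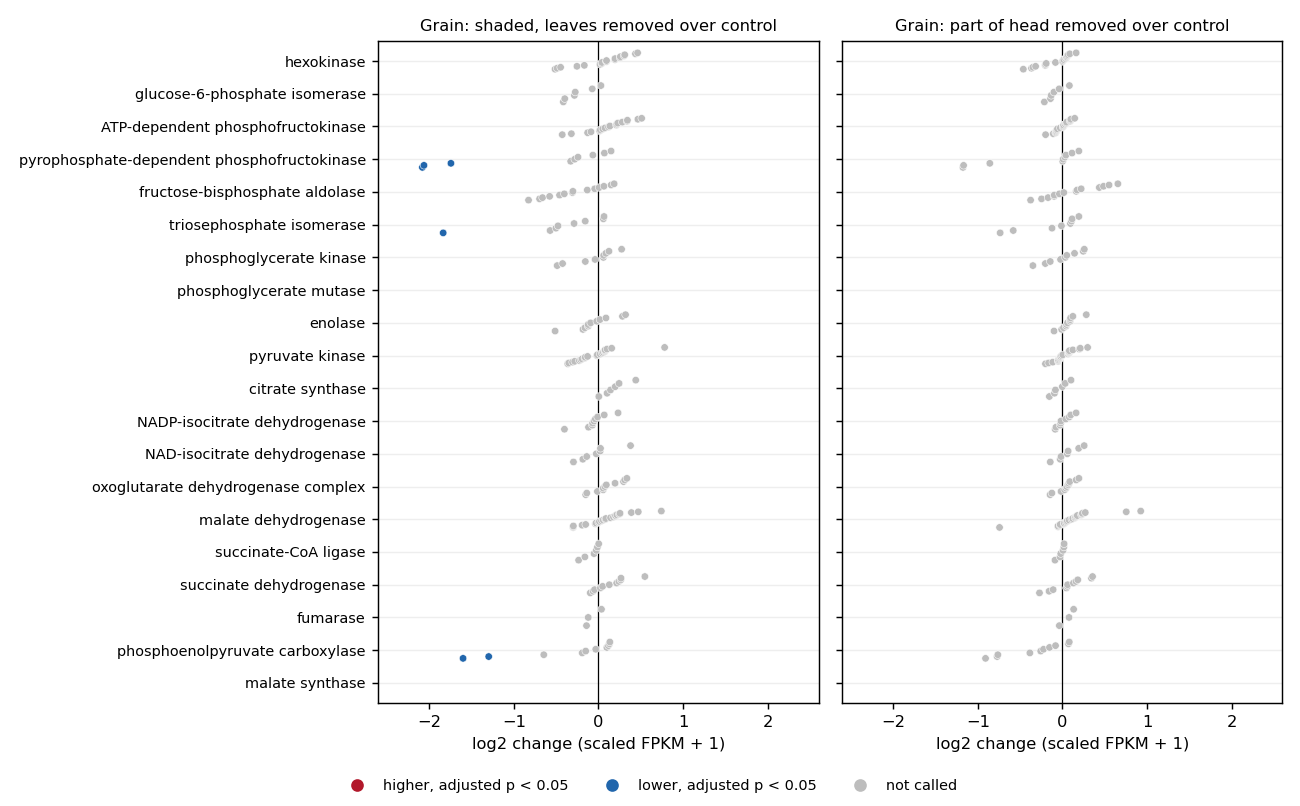
Log2 change of every member tested in grain, by enzyme step, for shading with defoliation over control (left) and partial head removal over control (right). Blue points are members called lower at a limma adjusted p under 0.05. The left panel holds 6 called members, in PFP, triosephosphate isomerase and PEP carboxylase, and the right panel holds none.

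Partial head removal called no member in grain in limma, with 12 of 200 at an unadjusted p under 0.05 and 0.0284% of all genes called (0.00655% higher and 0.0218% lower). The 3 PFP alpha copies of group 5 had changes of -1.18 ± 0.28 (MSTRG.50585 on 5BS), -1.17 ± 0.31 (MSTRG.54819 on 5DS) and -0.86 ± 0.28 (MSTRG.46975 on 5AS), none past the test (limma adjusted p = 0.34, 0.42 and 0.58). Their groups did not overlap, but neither did those of 28 of the 200 members here, with none called. Overlap was not counted over all genes. Shaded grains against partial-removal grains gave no limma call either, with 45 members at an unadjusted p under 0.05 and 0.19% of all genes called (0.0306% higher and 0.159% lower). Partial removal was the only treatment given to both tissues, and the leaf effect less the grain effect passed for none of 167 members in limma, with 22 at an unadjusted p under 0.05 and 0.0978% of all genes called (0.041% higher and 0.0568% lower). The nearest was MSTRG.54819, the 5DS PFP copy, at 1.73 ± 0.35 (limma adjusted p = 0.092).

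Control leaves and control grains differed at most members, as at most genes. Of 229 members tested in this fit, 91 were higher and 81 lower in leaf, and 70.8% of all 49955 genes were called, 35.6% higher and 35.2% lower. Without scaling, 114 were higher and 53 lower, with the median of all genes at 0.33. In this fit glycolysis had 42 higher and 64 lower of 136, and the TCA cycle 46 higher and 17 lower of 90. Each named value below is on the scale of these 6 libraries. A locus under 1 in every library of a tissue passed the filter on low values through the other tissue alone.

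Several enzymes had different copies abundant in the 2 tissues. The 3 PEP carboxylase copies of the group 3 set had 71.5, 73.4 and 63.1 scaled FPKM in control leaves and 0, 0.0233 and 0.0279 in control grains at MSTRG.24984 on 3AS, and log2 differences of 6.11 ± 0.11, 5.47 ± 0.12 (MSTRG.29483 on 3B) and 6.04 ± 0.14 (MSTRG.33048 on 3DS). The copies that fell in shaded grains showed the opposite. MSTRG.26386 on 3B had 0.0362 ± 0.0266 in control leaves, against 8.62 ± 2.82 in control grains (SD, n = 3 each; log2 -3.17 ± 0.21), and MSTRG.30658 on 3DL had a difference of -2.58 ± 0.20. The leaf-over-grain differences of the other members called in shaded grains were -2.67 (MSTRG.23406), -2.03 (MSTRG.50585), -1.07 (MSTRG.54819) and -0.77 (MSTRG.46975), and both comparisons share the control grain libraries.

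Succinate dehydrogenase showed the largest difference towards grain. Its iron-sulfur subunit 3, an isoform known from Arabidopsis seeds, has copies on 5AL, 5BL and 5DL. MSTRG.52851 on 5DL had 0, 0.423 and 0.548 scaled FPKM in control leaves, against 63.0, 78.5 and 92.5 in control grains (log2 -5.91 ± 0.22), and was the most abundant succinate dehydrogenase locus in grain. MSTRG.49359 on 5BL had 0.102 ± 0.0952 in leaf and 15.5 ± 3.40 in grain, and MSTRG.43759 on 5AL had 0.104 ± 0.0901 in leaf and 12.1 ± 2.03 in grain (SD, n = 3 each). The flavoprotein copies of 5AL, 5BL and 5DL were higher in leaf instead, with differences of 1.29, 1.72 and 1.63. In the oxoglutarate dehydrogenase complex, the loci MSTRG.13656 on 2AS and MSTRG.17763 on 2BS were grain copies, at 0.685 ± 0.198 and 0.942 ± 0.226 in leaf and 11.1 ± 0.394 and 13 ± 0.316 in grain.

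Aldolase divided by chromosome group. The 9 copies on groups 4, 5 and 7 were all higher in leaf, by 5.1 to 7.66 on the log2 scale, and the group 3 copies were lower in leaf at 9 of 10 loci, the tenth, MSTRG.24338, not passing the test (log2 -2.83). MSTRG.50760 on 5BS had 219, 291 and 150 scaled FPKM in control leaves, against 0, 0 and 0.182 in control grains, while MSTRG.24139 on 3AL had 4.96, 4.53 and 5.31 in leaves and 44.8, 43.5 and 45.0 in grains. Chloroplast and cytosolic forms are not distinguished in the descriptions of this enzyme. Hexokinase was lower in leaf at 17 of 18 copies, with MSTRG.32964 on 3DS at 0.0608, 0.113 and 0.333 in leaves and 5.53, 7.03 and 7.48 in grains (log2 -2.71 ± 0.15). Triosephosphate isomerase was higher in leaf at the 6 copies described as cytosolic or chloroplastic, by 0.96 to 2.18, and lower at its 2 undescribed ones. NADP-dependent isocitrate dehydrogenase, which supplies oxoglutarate for nitrogen assimilation, was higher in leaf at 8 of 9 copies, led by the cytosolic copy MSTRG.24241 on 3AL (88.8 ± 0.267 in leaf and 13.6 ± 0.122 in grain).

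Malate dehydrogenase also held both kinds of copy, with 10 higher and 7 lower in leaf. The 5AL, 5BL and 5DL copies led in leaf: MSTRG.49556 on 5BL had 208 scaled FPKM in control leaves and 8.36 in control grains (log2 4.48 ± 0.15). All 3 malate synthase copies were higher in control leaf, by 4.24 ± 0.19 (MSTRG.12552), 2.74 ± 0.20 (MSTRG.16081) and 2.28 ± 0.32 (MSTRG.19905). Fermentation enzymes, outside the members, had no locus at the limit for testing in leaf. The 7 loci tested here passed the filter through grain libraries, so a lower level in leaf was favoured by the filter. All 7 were lower in leaf, with a median of -3.29.

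**Figure D4:**
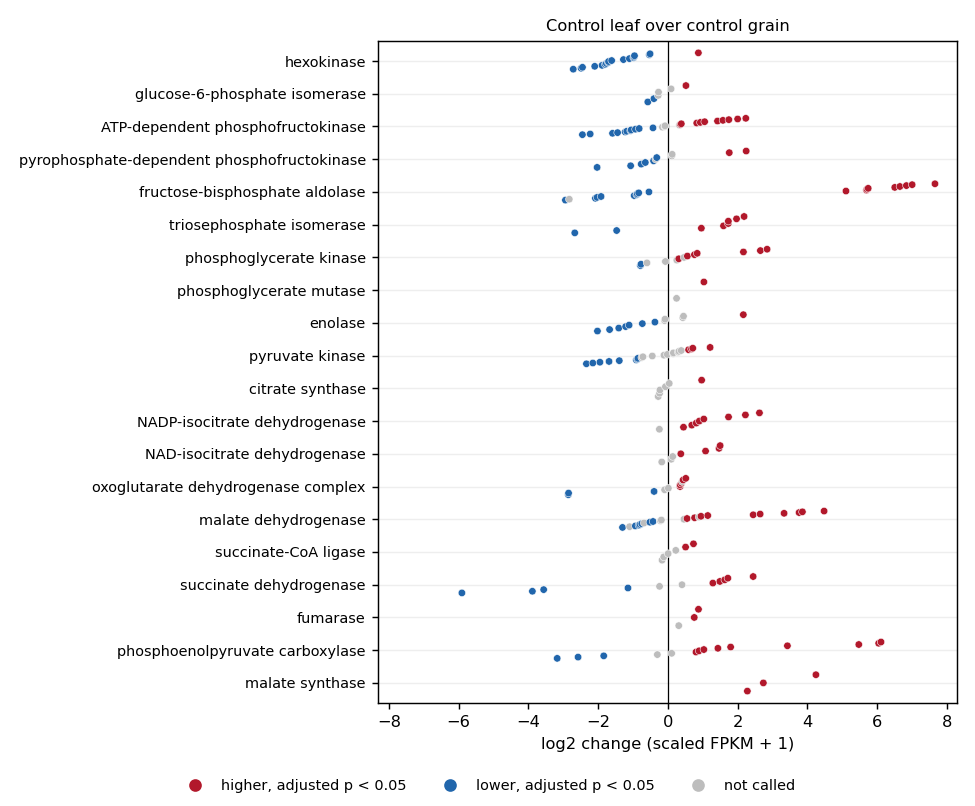
Log2 difference of control leaf over control grain for each of the 229 members tested, by enzyme step. Red points are members called higher in leaf and blue points members called lower in leaf at a limma adjusted p under 0.05. Aldolase, PEP carboxylase and succinate dehydrogenase span the widest ranges, with copies far to both sides of 0.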

How the data were processed

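Poly(A) RNA of 18 libraries, 3 in each of 6 groups, was prepared with TruSeq v2 kits and sequenced as read pairs, per the labels' protocols. The authors deposited gene FPKM; the submitters' processing notes name HISAT, StringTie and edgeR without versions, and the genome build is not given in the sources used here. Gene names carry TGACv1 identifiers with chromosome arms. Reads of homoeologs can be shared, so the copy is uncertain, and strandedness is not stated. The depth per library is unknown, since no counts were used.

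FPKM was scaled by median ratios within a tissue (9 libraries), over the 6 control libraries for leaf against grain, and within each tissue for the 12-library fit of partial removal. A gene was kept where 3 or more libraries, in each tissue for the 12-library fit, had an FPKM of 1 or more, and was fitted as log2(scaled FPKM + 1) in limma 3.58.1 (R 4.3.3) with a variance trend, and p-values were Benjamini-Hochberg adjusted over all genes. The fit was also run on simulated data in which every gene had the same spread and few genes changed. That setting is simpler than these libraries, so it does not show how the fit performs on them. Values are means ± SD, and log2 changes are given ± SE.

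The members and lists were chosen with earlier results of these data known. Steps came from annotated functions and enzyme numbers, and 3 phosphoglycerate kinase loci also carry a tRNA methyltransferase function. Genes were named from these sets: malate synthase, the most abundant copy of a step, the 8 largest rises and falls among called members with a higher group mean of at least 5, and copies of a step called in opposite directions. Remaining copies of a named family, isocitrate lyase and genes outside the members were chosen after their values were seen. Alternatives were pseudocounts of 0.1 and 0.5, no scaling, quantile normalization, no filter, a mean FPKM of at least 5, no trend, the compared groups alone, a replicate block, and each library left out.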

Additional observations from a re-analysis of the deposited data

How the results depend on the processing

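Alternatives were run for members called in a comparison and chosen by the naming rule, and none of these changed direction. Of the members called after whole head removal, 28 of 50 kept their call in every alternative that tested them; of those called after partial removal in leaf, 1 of 3; between whole and partial removal, 26 of 50; and in shaded grain, 1 of 6. Between control tissues, the 16 loci chosen by the rule kept theirs; the other loci named there, the genes outside the members and isocitrate lyase were not recomputed. After partial removal in leaf, 10 members were called without scaling, 1 without a filter and 1 with the replicate block. In shaded grain, 3 were called without a filter and 2 with the compared groups alone. Shaded against partial-removal grain gave 2 without scaling. Control leaf against control grain gave 108 with the stricter filter, which tested fewer members. The leaf-minus-grain effect of partial removal gave 16 without scaling, 1 with quantile normalization, 4 without a filter and 4 with the stricter filter. The cause of these shifts was not tested otherwise.

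With each library left out, the count of members called ranged between 32 and 54 for whole removal, 1 and 2 for partial removal, 28 and 54 between these, 2 and 7 for shaded grain, 0 and 1 for partial removal in grain, 0 and 1 for shaded against partial-removal grain, 132 and 148 between control tissues, and 0 and 1 for the leaf-minus-grain effect. Whole-removal counts ranged between 5 and 10 for PFP, 5 and 7 for PEP carboxylase and 4 and 8 for malate dehydrogenase, and stayed at 3 for malate synthase, which kept 1 testable copy under the stricter filter.

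Libraries with the same number did not vary together: the correlation of their deviations from group means ranged between -0.37 and 0.12, so the numbers were not taken to pair libraries. The replicate block moved no other count of members by more than 1.5 times. Depth is unknown, so low values such as those of isocitrate lyase carry no counting interval.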
